A study of Mus musculus with 28 samples.

Results

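H3K27me3, trimethylation of histone H3 at lysine 27, was measured by ChIP-seq in sorted mouse microglia over a deposited set of 26326 regions, of which 4294 (16.31%) are described here. These are intronic regions away from transcription start sites: the centre lies in an intron by both deposited annotations, the second of which would name a repeat where one covers the centre. The centre also lies more than 5 kb from the nearest annotated start site, and the region is shorter than 50 kb. No measured value entered the choice.

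The mark is laid down by Polycomb repressive complex 2, whose catalytic subunit is EZH2 or EZH1, and it is read by Polycomb repressive complex 1. It is best known from the promoters of silenced developmental genes with CpG islands, from which it can spread over broad domains that take in gene bodies. Demethylases of the KDM6 family remove it. Microglia are the resident macrophages of the brain, and they clear myelin debris after demyelination.

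All libraries came from adult male wild-type C57BL/6 mice. The basal group was microglia of mice on a regular diet, sorted as CD44low CD45low CD11blow. The other groups came from mice fed 0.2% cuprizone, a copper chelator that kills oligodendrocytes and demyelinates the brain, for 4 weeks. They were sorted on CD229 (Ly9), a receptor of the SLAM family, and CD11c (Itgax), an integrin subunit, into CD229-CD11c-, CD229+CD11c- and CD229+CD11c+ microglia. The CD44low CD45low CD11blow gate is labelled for the basal group only, so that diet and sort cannot be told apart in the comparisons with basal microglia. Brains of 2 to 6 mice of a condition were pooled for sorting. Each group had 3 libraries with deposited counts, and the labels do not say that they came from separate sorts, so that each p-value measures only the spread between these libraries. H3K27me3 shows nothing of the mRNA of a cell type, and the sorted identity could not be checked against expressed markers.

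The 12 libraries held 7740002 to 11362168 tags in all regions and 1017073 to 1472384 in the intronic members, with a median of 145 to 209 tags per member and a minimum of 6 to 16. The titles of basal replicates 4 and 5 and of replicates 1 and 2 of each cuprizone group carry the tag PE150, and the other 4 libraries do not. The levels below are CPM, the tags in a region relative to the library's tags in all regions, scaled by the trimmed mean of M-values, and are divided by length where members are compared with each other. No input was subtracted.

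The members covered 39.98 Mb of the 276.9 Mb in all regions. Their median length was 6258 bp, with a range from 1250 to 49744 bp, and their median distance from the nearest start site was 32394 bp, with a range from 5003 to 605899 bp. By the authors' log2 fold over input in the basal libraries that were used to call the regions, the members had a median of 1.45, against 1.49 over all regions. The median basal level per length was 2.81 CPM per kb, against 3.00 over all regions. A host gene was matched to 4288 members, which lay in 2089 genes. Of these genes, 1231 held 1 member and 179 held 5 or more. The most were in Asic2, which encodes an acid-sensing ion channel, with 22 members, Rora, which encodes a nuclear receptor, with 21, and Cacna1c, which encodes an L-type calcium channel subunit, with 19. The nearest start site was that of the host gene for 2853 members (66.53%), and 1086 members (25.29%) lay in a first intron.

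The label holds for the centre of a member and not always for its whole length. A RefSeq promoter window, 250 bases before to 50 after a start, lay inside 340 members, and that of a protein-coding gene inside 187. In the RefSeq table, which lists more starts than the deposited annotation used, 165 members had a start within 5 kb of the centre. Counts are therefore given below with and without the members that contain a promoter. At the distance threshold, the nearest members inside were at Il2rb, Prickle2 and Celf6, at 5003, 5005 and 5008 bp, with log2 changes in CD229+CD11c- against basal microglia of 0.10, -0.13 and 0.18. The nearest outside were at Opn4, Hmga2 and Adra1d, at 4999, 4989 and 4986 bp, with -0.05, 0.47 and 0.44. At the length threshold, the longest members were at Sim1, Kalrn and Cldn14, with 49744, 49591 and 49471 bp and log2 changes of 0.42, 0.07 and 0.13. The shortest regions beyond it were at Crybg1, Atp5o and Dtx1, with 50026, 50034 and 50566 bp and log2 changes of 0.16, 0.43 and 0.58. The distance rule left out 1462 intronic regions under 50 kb and the length rule 139.

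Promoters that lie within members named below are shown because members with a protein-coding promoter inside held a larger share of calls, and the promoters range from CpG-rich to CpG-poor. The choice was made after the values were seen. The 250 bases before the RefSeq start (build GRCm38.p6, mm10 coordinates) are given 5′ to 3′ on the gene's strand, with each CG dinucleotide in capitals. Begain, a gene of a postsynaptic density protein, and Foxred2, a gene of an endoplasmic reticulum flavoprotein, lie in members that rose in CD229+CD11c- microglia, as does Erfl, a gene of an ETS family repressor-like protein. Oasl2, an interferon-induced gene of the oligoadenylate synthetase family, and Egln3, a gene of a prolyl hydroxylase of hypoxia-inducible factors, lie in members that fell.
Begain: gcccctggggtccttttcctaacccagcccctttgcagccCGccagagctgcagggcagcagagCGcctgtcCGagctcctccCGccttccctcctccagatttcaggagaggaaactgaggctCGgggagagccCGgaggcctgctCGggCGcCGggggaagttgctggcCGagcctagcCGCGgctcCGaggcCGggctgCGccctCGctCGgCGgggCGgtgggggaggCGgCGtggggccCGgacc
Foxred2: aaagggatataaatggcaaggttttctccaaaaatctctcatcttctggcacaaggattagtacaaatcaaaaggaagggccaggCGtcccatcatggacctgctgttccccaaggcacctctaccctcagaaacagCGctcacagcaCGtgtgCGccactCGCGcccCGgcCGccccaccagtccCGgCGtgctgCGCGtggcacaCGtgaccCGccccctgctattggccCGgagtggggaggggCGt
Erfl: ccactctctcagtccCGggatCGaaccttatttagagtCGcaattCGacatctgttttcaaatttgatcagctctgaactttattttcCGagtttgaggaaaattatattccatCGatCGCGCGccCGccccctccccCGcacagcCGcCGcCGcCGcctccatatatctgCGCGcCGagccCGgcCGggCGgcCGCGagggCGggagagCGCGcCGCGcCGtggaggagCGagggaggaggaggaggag
Oasl2: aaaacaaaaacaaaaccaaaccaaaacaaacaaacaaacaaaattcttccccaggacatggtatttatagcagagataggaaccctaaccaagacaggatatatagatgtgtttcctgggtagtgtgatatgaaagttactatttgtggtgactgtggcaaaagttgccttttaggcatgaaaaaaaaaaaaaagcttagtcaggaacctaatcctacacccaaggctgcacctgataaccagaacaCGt
Egln3: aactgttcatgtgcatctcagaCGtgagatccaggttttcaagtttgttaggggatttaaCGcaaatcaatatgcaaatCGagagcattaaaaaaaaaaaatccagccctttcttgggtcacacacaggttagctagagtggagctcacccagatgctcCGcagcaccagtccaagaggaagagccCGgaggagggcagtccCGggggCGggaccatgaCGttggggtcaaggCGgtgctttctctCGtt
The Begain sequence is at chr12:109053757-109054006 on the minus strand, with 22 CG dinucleotides and 73.6% GC, and is the most upstream of the Begain promoter windows in that member. Foxred2 is at chr15:77956723-77956972 on the minus strand, with 16 CG and 60.0% GC, and Erfl at chr7:24944772-24945021 on the minus strand, with 30 CG and 61.6% GC. Oasl2 is at chr5:114896684-114896933 on the plus strand, with 1 CG and 37.6% GC. Egln3 is at chr12:54203875-54204124 on the minus strand, with 10 CG and 50.8% GC. Over the 32851 RefSeq promoters the median was 6 CG per 250 bases, with at least 1 in 92.13%, and over the 21263 protein-coding ones it was 10, with at least 1 in 93.39%. The 3 members that rose hold promoters above the protein-coding median, and the 2 that fell hold one far below it and one at it. These few sequences are a description only.

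The share of each library's region tags that lay in the intronic members was compared first, as a single value per library. It was 12.80, 13.18 and 13.17% in basal microglia (13.05% ± 0.219, SD, n = 3) and 13.01, 13.14 and 12.74% in the CD229-CD11c- subset (12.96% ± 0.207). In CD229+CD11c- microglia it was 12.36, 12.26 and 12.07% (12.23% ± 0.150), and in the CD229+CD11c+ subset 12.69, 12.68 and 12.59% (12.66% ± 0.0539). The CD229+CD11c- libraries were thus the lowest and the CD229+CD11c+ libraries came next, and neither group overlapped any other. Against basal microglia the difference was -0.818 percentage points in CD229+CD11c- and -0.395 in the CD229+CD11c+ subset. Against CD229-CD11c- microglia it was -0.731 and -0.307 points, and CD229+CD11c+ exceeded CD229+CD11c- microglia by 0.423 points. The exact permutation p of each of these 5 differences was 0.1, the smallest that 3 against 3 libraries can give (two-sided), and 0.12 after Benjamini-Hochberg adjustment over the 6 comparisons. The CD229-CD11c- and basal libraries overlapped, with a difference of -0.0876 points (exact permutation p = 0.5, adjusted 0.5).

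Within the PE150-tagged libraries the 5 differences were -0.863, -0.490, -0.762, -0.390 and 0.372 points in the same order. Between the untagged libraries, 1 per group, they were -0.729, -0.204, -0.667, -0.142 and 0.526. The CD229-CD11c- difference from basal was -0.100 and -0.0622 in the same sets, and 0.0261 without CD229-CD11c- replicate 3. With only regions under 50 kb in the denominator, the 5 differences were -0.578, -0.210, -0.570, -0.201 and 0.369 points, and the CD229-CD11c- difference was -0.00875. The exact permutation p of the 5 was then 0.1, 0.3, 0.2, 0.4 and 0.1, unadjusted. CD229-CD11c- libraries then overlapped both CD229+ groups, and CD229+CD11c+ libraries overlapped basal ones. Another measure per library was the mean log2 CPM of members less that of other regions. By it the groups of every comparison overlapped. Its 5 differences were -0.048, -0.0049, -0.054, -0.011 and 0.043 (exact permutation p = 0.2, 0.8, 0.3, 0.8 and 0.2).

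**Figure D1:**
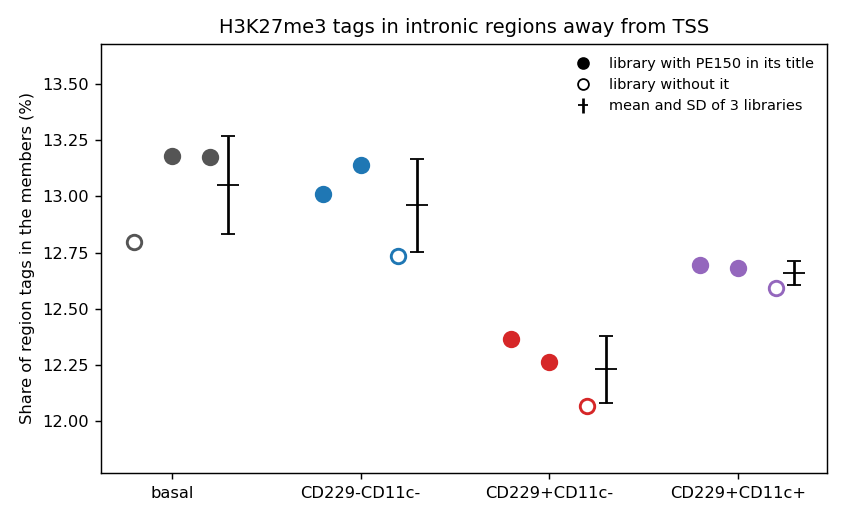
Share of the tags in all regions that lies in the intronic members, in percent, for each of the 12 libraries by group, with filled points for libraries with PE150 in the title, open points for those without, and a bar for the mean and SD of 3 (the axis does not start at 0). The CD229+CD11c- libraries lie between 12.07 and 12.36%, below every library of the other groups.

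Single members were tested with edgeR's quasi-likelihood test over all 26326 regions, and a member was called at a Benjamini-Hochberg adjusted p under 0.05. In CD229+CD11c- against basal microglia 226 members rose and 209 fell, 5.26 and 4.87% of the members. Over all regions 9.52% rose and 3.47% fell, and of the 22032 other regions 2280 (10.35%) rose and 704 (3.20%) fell. The changes were modest: the median absolute log2 change was 0.45 among members that rose and 0.50 among those that fell, and 19 called members changed at least 2-fold. Over all members, the median log2 change was -0.05, against -0.03 over all regions, and 90% lay between -0.47 and 0.40. In CD229+CD11c+ against basal microglia 90 members rose and 69 fell (2.10 and 1.61%), against 4.33 and 1.47% of all regions. The median log2 change was within 0.01 of 0, and 6 called members changed at least 2-fold. These comparisons share the basal libraries.

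The balance of the calls rested on the scaling. With library totals in place of the trimmed mean of M-values, 131 members were higher and 708 lower in CD229+CD11c-, and 46 and 142 in the CD229+CD11c+ subset. That scaling moved the median log2 change of all regions in CD229+CD11c- from -0.03 to -0.16, and of the members from -0.05 to -0.18. With loess offsets on the level the counts were 153 and 218, and 60 and 78. Called counts also fell when single libraries were left out: to 238 without basal replicate 4 and 275 without CD229+CD11c- replicate 1, of 435 in CD229+CD11c-. In CD229+CD11c+, where 159 were called, they fell to 42 and 56 without CD229+CD11c+ replicates 1 and 2, and to 80 and 50 without basal replicates 3 and 4. In the PE150-tagged libraries alone, 361 and 383 members were called higher and lower in CD229+CD11c-, and 328 and 266 in CD229+CD11c+. Of these 744 and 594 members, 671 (90.19%) and 517 (87.04%) had the same sign between the untagged libraries, against 66.02 and 66.72% of all members. The authors' deposited table gave 243 members higher and 192 lower in CD229+CD11c-, and 157 and 107 in CD229+CD11c+, at an adjusted p under 0.05.

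No member was called between CD229-CD11c- and basal microglia by edgeR, as was the case over all regions (0.0% higher and 0.0% lower), nor by DESeq2. At an unadjusted p under 0.05 there were 171 members (3.98%, against 4.19% of all regions). The smallest p-values belonged to members at 5730435O14Rik, Btbd11 and Dok7, with log2 differences of 0.75, 0.46 and 0.60 and an adjusted p of 0.983 each. The first of these was called in other comparisons, described below. Dok7 encodes an adaptor of the muscle-specific kinase MuSK. With the PE150 tag as a covariate 4 members were called. In the tagged libraries alone 117 were, of which 52 (44.44%) had the same sign between the untagged libraries, against 49.30% of all members.

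Between cuprizone subsets, 151 members rose and 99 fell in CD229+CD11c- against CD229-CD11c- microglia (3.52 and 2.31%), against 6.75 and 1.6% of all regions. With library totals this became 85 and 335, with loess offsets 82 and 99, and with the replicate number as a block 280 and 298. In CD229+CD11c+ against CD229-CD11c- microglia 9 members rose and 4 fell (0.210 and 0.0932%), against 0.395 and 0.152% of all regions. With library totals and with loess offsets this became 4 and 5, and with the replicate block 121 and 82. In CD229+CD11c+ against CD229+CD11c- microglia 4 members rose and 19 fell (0.0932 and 0.443%), against 0.0532 and 0.771% of all regions. Both of those scalings left 1 and 1. The counts of the last pair of comparisons moved when a library was left out, and why was not tested. Without CD229+CD11c+ replicate 1, 2 or 3 the 13 calls against CD229-CD11c- microglia became 3, 4 or 7. Without CD229-CD11c- replicate 1, 2 or 3 they became 12, 5 or 24. The 23 calls between the CD229+ subsets became 1, 1 or 11 without CD229+CD11c+ replicate 1, 2 or 3, and 3, 2 or 1 without CD229+CD11c- replicate 1, 2 or 3.

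**Figure D2:**
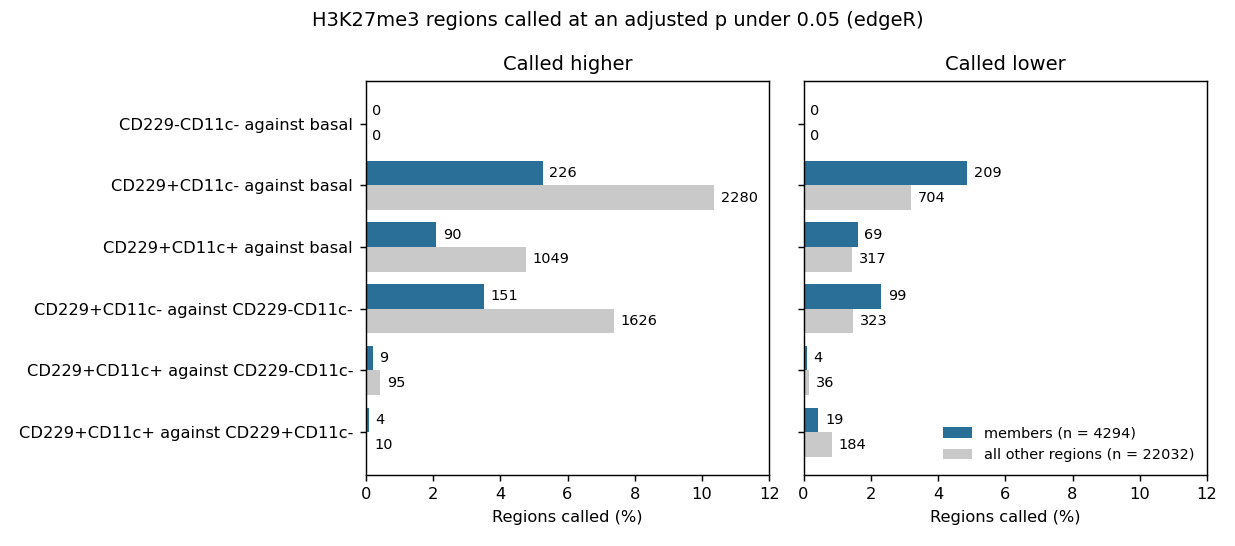
Members called higher and lower at an adjusted p under 0.05 in each comparison, as a percent of the 4294 intronic members and of the 22032 other regions. In CD229+CD11c- against basal microglia 5.26% of the members and 10.35% of the other regions were higher, and 4.87 and 3.20% were lower.

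The members that rose and fell in CD229+CD11c- against basal microglia differed in build. The 226 that rose were 18108 bp long at the median and 11678 bp from the nearest start, and the 209 that fell 8240 bp and 33801 bp. The 3859 members without a call had 5959 bp and 34050 bp. Basal log2 fold over input was 1.78 in those that rose, 1.36 in those that fell and 1.44 in the others. A protein-coding promoter window lay inside 31.4, 2.39 and 2.88% of them. The median count behind a member was 761, 211 and 162.5 tags in the same order, so that the members that rose were also measured most precisely. In CD229+CD11c+ against basal microglia the median lengths were 16366, 9929 and 6140 bp, in the same order, and protein-coding promoters lay inside 24.4, 5.80 and 3.89%, so that there the uncalled members had the smallest share. These are descriptions without a test, and the part of the count depth in them was not tested.

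By class, the 187 members with a protein-coding promoter inside held 71 that rose and 5 that fell in CD229+CD11c- microglia (38.0 and 2.67%). Their median log2 change was 0.14, and 0.00 with library totals and 0.01 with loess offsets. The 153 with only another gene's promoter, such as that of a noncoding RNA, held 20 and 4. The 3954 with no promoter inside held 135 that rose and 200 that fell (3.41 and 5.06%), with a median of -0.06. Their median was -0.20 with library totals and -0.03 with loess offsets. In CD229+CD11c+ microglia the first class held 22 and 4, and the last 62 and 63. Leaving out the 165 members with a RefSeq start within 5 kb of the centre left 4129, of which 207 rose and 204 fell in CD229+CD11c- and 85 and 66 in the CD229+CD11c+ subset.

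The calls also differed by distance from a start and by length. Of the 1404 members over 5 to 20 kb from a start, 148 rose and 65 fell in CD229+CD11c- microglia (10.5 and 4.63%). Of the 2251 members at 20 to 100 kb, 64 rose and 107 fell, and of the 639 beyond 100 kb, 14 rose and 37 fell (2.19 and 5.79%). In the longest length quartile 153 of 1072 rose and 71 fell, and in the shortest 12 of 1074 rose and 29 fell. The median log2 changes of these quartiles, 0.02 and -0.09, changed order with loess offsets, to -0.07 and 0.01. By basal enrichment over input, the strongest quartile had 136 that rose and 27 that fell, and the weakest 14 and 72. Within the longest quartile, 71 of the 182 members with a protein-coding promoter rose (39.0%), against 68 of the 807 with none (8.43%), where 65 fell. The median counts there were 979 and 513 tags. In the strongest quartile, 58 of 101 with a protein-coding promoter rose and 0 fell, against 67 and 26 of the 929 with none, but the median counts differed more, at 1243 and 83.8 tags. First introns held 74 that rose and 52 that fell among 1086 members, and later introns 152 and 157 among 3208. Of the 19 members on chromosome X, 4 rose and none fell.

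**Figure D3:**
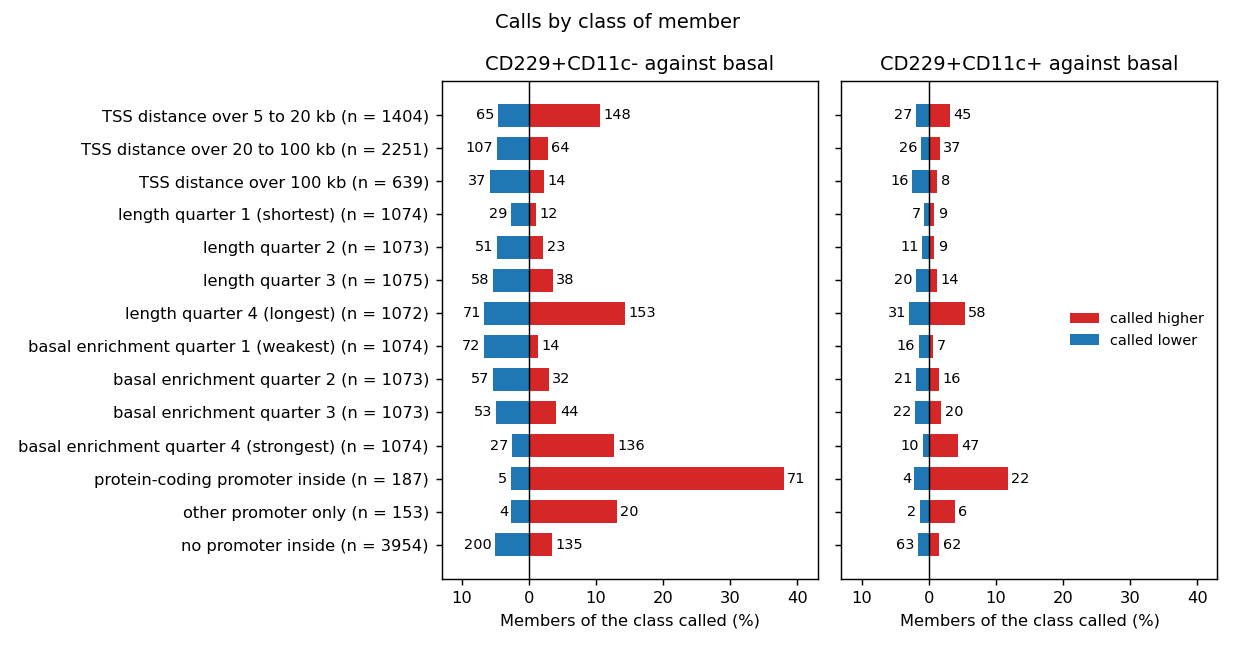
Percent of intronic members called higher and lower in CD229+CD11c- and CD229+CD11c+ against basal microglia, by distance from the nearest start, length, basal enrichment and promoter content. Members with a protein-coding promoter inside were called higher most often, 38.0% in CD229+CD11c- microglia, and members beyond 100 kb from a start were called lower more often than higher.

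Single members were named by a rule: called, at or above the median level of the members, with no overlap of the libraries of the groups compared, and ranked by the size of the change, 1 per gene. The largest rise by this rule in CD229+CD11c- against basal microglia was in Scarf2, which encodes a scavenger receptor family membrane protein. The member lies in intron 2 of 10 (chr16:17797061-17807926, 10.9 kb). Its level was 42.3, 31.8 and 31.9 CPM in basal replicates 3, 4 and 5, and 37.1, 35.1 and 46.6 in CD229-CD11c- replicates 1, 2 and 3. It was 78.9, 82.2 and 91.1 in the CD229+CD11c- replicates and 58.65, 56.5 and 64.3 in the CD229+CD11c+ replicates. Every CD229+CD11c- library lay above every other, and the CD229+CD11c+ libraries lay above the 6 remaining ones. The log2 change against basal microglia was 1.25 ± 0.12 (SE, edgeR adjusted p = 4.33e-07) in CD229+CD11c- and 0.76 ± 0.12 (adjusted p = 0.00056) in the CD229+CD11c+ subset. Both calls held under all 11 alternatives.

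The member at Foxred2 spans the promoter printed above (intron 6 of 8, chr15:77932342-77964248, 31.9 kb). It had 240.7, 198.6 and 217.5 CPM in basal, 230.1, 211.2 and 260.6 in CD229-CD11c-, 361.4, 338.8 and 406.6 in CD229+CD11c- and 251.9, 256.9 and 296.7 CPM in the CD229+CD11c+ subset. Here CD229+CD11c- stood apart from every other group, and the CD229+CD11c+ libraries lay above basal and overlapped CD229-CD11c-. The log2 change was 0.75 ± 0.09 in CD229+CD11c- (edgeR adjusted p = 8.07e-06), and 0.30 in the CD229+CD11c+ subset, which missed the threshold (adjusted p = 0.0613). At 6.86 CPM per kb in basal microglia it was already the second densest member. Only a member at Tnfrsf18, which encodes the TNF receptor family protein GITR, was denser, at 6.98 CPM per kb. That member, which lies in an intron of Ttll10, also rose in CD229+CD11c- microglia, by 0.67 (adjusted p = 0.000646). The other members among the 5 densest, at Col8a2, Sim1 and, in Sptbn4, Shkbp1, had 6.58, 6.56 and 6.55 CPM per kb and rose there by 0.46, 0.42 and 0.55. The Sim1 call ended with loess offsets (adjusted p = 0.639). By contrast, the 5 members with the highest log2 fold over input, at Kirrel3 (4.21), Mecom (3.93), F13a1 (3.82), Nek11 (3.58) and Pnma5 (3.47), were each 1250 bp long, had a mean count of 20.17 to 31.5 tags, and were called in no comparison.

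The region around Egln3 on chromosome 12 held members that moved in opposite directions. The member centred in intron 1 of 4 of Egln3, which takes in the promoter shown above (chr12:54185132-54210988), had 82.2, 74.7 and 78.2 CPM in basal and 70.2, 67.4 and 91.2 in the CD229-CD11c- subset. It had 43.2, 51.65 and 49.5 in CD229+CD11c- and 44.7, 50.7 and 59.4 CPM in the CD229+CD11c+ subset. Both CD229+ groups lay below all basal and CD229-CD11c- libraries, with log2 changes against basal of -0.71 ± 0.11 (edgeR adjusted p = 0.000193) and -0.60 ± 0.11 (adjusted p = 0.00351). The other member lies 137 kb from the Egln3 start, in intron 10 of 10 of Npas3, which encodes a neuronal bHLH-PAS transcription factor (chr12:54061942-54071436). It had 36.3, 33.95 and 40.2 CPM in basal, 48.9, 48.96 and 36.8 in CD229-CD11c-, 62.5, 60.4 and 67.6 in CD229+CD11c- and 60.6, 58.6 and 54.7 CPM in the CD229+CD11c+ subset. Every CD229+ library was above every basal and CD229-CD11c- library here. It rose by 0.78 ± 0.10 (adjusted p = 1.75e-05) and 0.65 ± 0.10 (adjusted p = 0.000746). All 4 calls held under the 11 alternatives run for single members.

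Oasl2 had the largest fall by the rule. The centre of the member lies in the last intron of the gene, and the member takes in the CpG-poor promoter shown above (intron 4 of 4, chr5:114895075-114921713, 26.6 kb). It had 144.0, 121.3 and 117.4 CPM in basal and 101.2, 88.6 and 129.9 in the CD229-CD11c- subset. It had 48.2, 58.2 and 61.6 in CD229+CD11c- and 70.8, 72.7 and 88.9 CPM in the CD229+CD11c+ subset. All CD229+CD11c- libraries were below all others, and the CD229+CD11c+ libraries were below all basal ones but overlapped CD229-CD11c-. The log2 change was -1.19 ± 0.13 (edgeR adjusted p = 4.83e-06) and -0.72 ± 0.13 (adjusted p = 0.00259), and both calls held under the same 11 alternatives.

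Efr3b, which encodes a plasma membrane anchor of phosphatidylinositol 4-kinase, held a member in intron 1 of 22 (chr12:4019722-4029613). Its level was 24.2, 24.9 and 24.9 CPM in basal, 22.6, 22.6 and 27.8 in CD229-CD11c-, 10.7, 12.5 and 17.4 in CD229+CD11c- and 12.7, 11.85 and 11.05 CPM in the CD229+CD11c+ subset. The CD229+ groups overlapped each other and were below all other libraries. It fell by 0.87 ± 0.15 (edgeR adjusted p = 0.000298) and by 1.06 ± 0.15 (adjusted p = 0.000254) on the log2 scale against basal microglia. Against CD229-CD11c- microglia the change in CD229+CD11c+ was -1.04 ± 0.15 (adjusted p = 0.00155). Of the 4 members in Efr3b, 3 fell in CD229+CD11c- microglia.

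Baz2a, which encodes the large subunit of the nucleolar remodelling complex NoRC, held a member in intron 11 of 29 (chr10:128111420-128122242). It had 32.5, 33.8 and 22.7 CPM in basal, 19.4, 22.2 and 32.3 in CD229-CD11c-, 14.3, 13.1 and 14.1 in CD229+CD11c- and 13.9, 13.7 and 20.2 CPM in the CD229+CD11c+ subset. The basal and CD229-CD11c- libraries were spread widely and overlapped. The CD229+CD11c- libraries were below all of them. The log2 change was -1.095 ± 0.19 (edgeR adjusted p = 0.000512) in CD229+CD11c- microglia. In CD229+CD11c+ microglia it was -0.89 ± 0.19 (edgeR adjusted p = 0.00854). Without CD229+CD11c+ replicate 1 or 2 or basal replicate 4 it missed the threshold, with an adjusted p of up to 0.0685.

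Rcan2, which encodes a regulator of calcineurin, rose in both CD229+ groups (intron 2 of 4, chr17:43998886-44017256). Basal libraries had 47.02, 48.1 and 50.5 CPM and CD229-CD11c- libraries 65.1, 60.95 and 52.1. CD229+CD11c- libraries had 70.2, 80.05 and 68.3, and CD229+CD11c+ libraries 76.7, 80.01 and 76.8 CPM. All CD229+ libraries were above all others, and the CD229-CD11c- libraries were above the basal ones, a difference that was not called. The log2 change against basal was 0.58 ± 0.09 (edgeR adjusted p = 8.18e-05) in CD229+CD11c- and 0.68 ± 0.09 (adjusted p = 0.000118) in the CD229+CD11c+ subset.

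A member in intron 3 of 11 of Lef1, which encodes a transcription factor of Wnt signalling and lymphocyte development, was long and steady across replicates (chr3:131098852-131136772). It had 152.8, 152.7 and 149.2 CPM in basal, 180.4, 155.0 and 153.2 in CD229-CD11c-, 244.8, 254.5 and 253.6 in CD229+CD11c- and 216.8, 217.8 and 207.6 CPM in the CD229+CD11c+ subset. The groups stood in the order CD229+CD11c-, CD229+CD11c+ and the others, with no overlap between the CD229+ groups. It rose by 0.73 ± 0.07 (edgeR adjusted p = 4.77e-07) and 0.50 ± 0.07 (adjusted p = 0.000226).

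**Figure D4:**
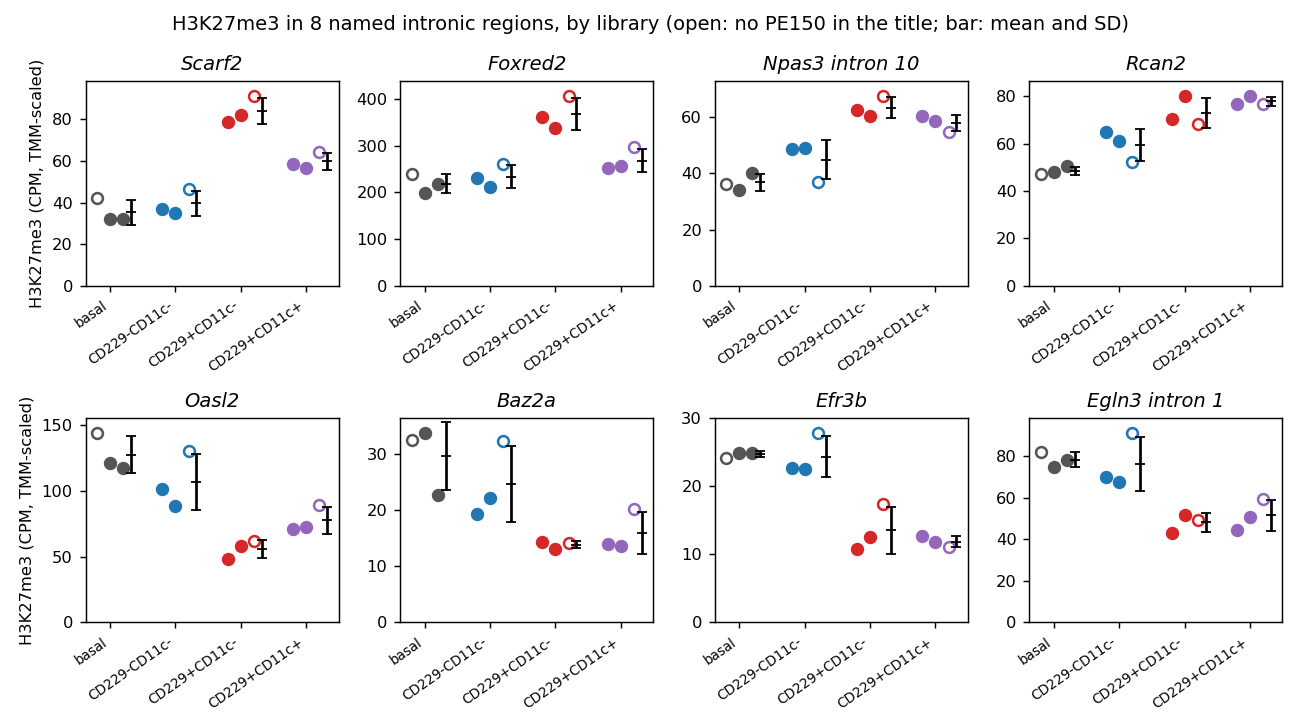
Level in CPM of 8 named intronic members in each of the 12 libraries, on a linear axis from 0, with filled points for libraries with PE150 in the title, open points for those without, and a bar for the mean and SD of each group. Scarf2, Foxred2, the Npas3 intron and Rcan2 are higher in CD229+CD11c- than in basal microglia, and Oasl2, Baz2a, Efr3b and the member centred in the first intron of Egln3 are lower.

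The largest rises of any member were below the level that the naming rule asks for and were picked with their values known. One lies in intron 6 of 22 of Ctnnd2, which encodes the neuronal junction protein delta-catenin, nearest to the start of 4930430F21Rik (chr15:30644442-30647660, 3.22 kb). It had 6.30, 7.27 and 6.13 CPM in basal, 5.63, 8.08 and 11.89 in CD229-CD11c-, 20.55, 26.64 and 28.17 in CD229+CD11c- and 17.93, 10.27 and 19.54 CPM in the CD229+CD11c+ subset. CD229+CD11c- was above all other libraries, and CD229+CD11c+ was above basal and overlapped CD229-CD11c-. It rose by 1.93 ± 0.24 (edgeR adjusted p = 1.48e-05) and 1.29 ± 0.24 (adjusted p = 0.00411) against basal microglia. The other, nearest to 5730435O14Rik, lies in intron 40 of 47 of Ccdc162 (chr10:41553555-41556296, 2.74 kb). It had 5.20, 7.08 and 4.40 CPM in basal, 9.28, 9.59 and 9.28 in CD229-CD11c-, 15.53, 17.53 and 25.14 in CD229+CD11c- and 15.5, 16.25 and 15.48 CPM in the CD229+CD11c+ subset. Both CD229+ groups were above all CD229-CD11c- libraries, which were above all basal ones. It rose by 1.80 ± 0.19 (edgeR adjusted p = 1.39e-06) and 1.5 ± 0.19 (adjusted p = 8.01e-05) against basal microglia. The mean counts were 136.2 and 120.7 tags, and these 4 calls held under the 11 alternatives run for single members.

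The largest fall of any member in the CD229+CD11c+ subset was below the level that the naming rule asks for and was picked with its values known. It lies in intron 1 of 52 of Myof, which encodes myoferlin, a protein of membrane fusion and repair (chr19:38024107-38026577, 2.47 kb). It had 5.40, 5.61 and 6.21 CPM in basal, 5.73, 6.94 and 7.15 in CD229-CD11c-, 2.12, 1.99 and 1.80 in CD229+CD11c- and 1.11, 1.02 and 0.796 CPM in the CD229+CD11c+ subset. The level was thus lower in CD229+CD11c- and lower again in CD229+CD11c+ libraries, with no overlap between those groups. The mean count was 37.92 tags. It fell by 1.54 ± 0.24 on the log2 scale (edgeR adjusted p = 0.000122) and by 2.56 ± 0.27 (adjusted p = 1.24e-05) against basal microglia, and was called under all alternatives run for it (11 and 10). The direct difference between the CD229+ groups, -1.02, was not called (adjusted p = 0.149).

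Further members that rose in CD229+CD11c- against basal microglia by the rule lay in Epn2, an endocytic adaptor gene (1.05, adjusted p = 0.000346), and Slc26a11, an anion transporter gene (0.80, adjusted p = 9.47e-05). Others were in Ksr1, a scaffold gene of MAP kinase signalling (0.79), Tns1, a focal adhesion gene (0.79), Begain (0.79), Erfl (0.75; named Gm4881 in the deposited table) and the noncoding gene Gm11266 (0.75). Slc26a11 rose in the CD229+CD11c+ subset as well, by 0.72 (edgeR adjusted p = 0.00141). Epn2, Begain and Gm11266 also passed there, at 0.66, 0.65 and 0.64, but Epn2 and Begain each missed the threshold in 5 of 6 runs that left out a library, with adjusted p up to 0.174 and 0.24. Both also missed it with total-count scaling, and Begain with loess offsets and DESeq2. Gm11266 missed it in 4, with adjusted p up to 0.171. For CD229+CD11c+ microglia the rule also named Megf10, a gene of an engulfment receptor (0.74 ± 0.13, adjusted p = 0.00141), and St8sia3, a sialyltransferase gene (0.74, adjusted p = 0.00466). For these, the log2 changes in CD229+CD11c- microglia were 0.45 and 0.72. The largest rise by the rule there was at Gm1043, 0.93 (adjusted p = 0.0189), a call that ended in 5 of 6 runs, all but the one without CD229+CD11c+ replicate 3 (adjusted p up to 0.0906).

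Further members that fell in CD229+CD11c- microglia lay in Diaph1, a formin gene (-0.92; nearest start Mir6979), Cpne4, a copine gene (-0.87; nearest start Mrpl3), and St3gal1, a sialyltransferase gene (-0.79). Members in Wdr19, a gene of intraflagellar transport (-0.69), Trps1, a GATA-type repressor gene (-0.68), and Setbp1, a gene of a SET-binding protein (-0.66), fell as well. In CD229+CD11c+ microglia Wdr19 (-0.89), Magi1, a junction scaffold gene (-0.60), Met, the hepatocyte growth factor receptor gene (-0.54), Limd1, a LIM-domain adaptor gene (-0.53), Setbp1 (-0.53) and a member in Ikbke nearest to Rassf5 (-0.53) fell. The Wdr19 call in CD229+CD11c- ended without CD229+CD11c- replicate 1 or 2 or basal replicate 3 (adjusted p up to 0.079), and that in CD229+CD11c+ without CD229+CD11c+ replicate 1 (0.0592). The Trps1 call ended in 4 of 6 such runs, without CD229+CD11c- replicate 1 or 2 or basal replicate 3 or 4 (up to 0.112). Met lost its call in 5 such runs, all but the one without CD229+CD11c+ replicate 3 (up to 0.256), and with loess offsets. Rassf5 lost its call without CD229+CD11c+ replicate 1 or 2 or basal replicate 3 or 4 (up to 0.161). Limd1 lost it without CD229+CD11c+ replicate 1 or basal replicate 3 (0.0708), and Setbp1 in CD229+CD11c+ without CD229+CD11c+ replicate 2 or basal replicate 4 (0.0776).

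Between the CD229+ subsets, the firmest member was in intron 3 of 12 of Ak8, which encodes an adenylate kinase (chr2:28692179-28730835, 38.7 kb). It had 150.2, 140.3 and 151.7 CPM in basal, 159.0, 153.8 and 157.3 in CD229-CD11c-, 234.9, 213.5 and 226.8 in CD229+CD11c- and 164.0, 160.8 and 163.9 CPM in the CD229+CD11c+ subset. CD229+CD11c- stood far above the other groups, and CD229+CD11c+ lay just above CD229-CD11c-. The rise against basal was 0.61 ± 0.06 in CD229+CD11c- (edgeR adjusted p = 1.55e-06) and 0.14 in the CD229+CD11c+ subset (adjusted p = 0.208). The direct difference of -0.47 ± 0.06 (adjusted p = 0.00198) held in all 11 alternatives, with an adjusted p of at most 0.0464.

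Neurl1b, which encodes a ubiquitin ligase of Notch ligands, gave the opposite pattern (intron 1 of 4, chr17:26420691-26434675). It had 48.4, 50.1 and 49.45 CPM in basal, 51.3, 44.8 and 44.85 in CD229-CD11c-, 31.35, 32.95 and 34.2 in CD229+CD11c- and 41.9, 43.9 and 47.3 CPM in the CD229+CD11c+ subset. CD229+CD11c- lay below the other groups, and CD229+CD11c+ overlapped CD229-CD11c- but not basal microglia. The direct difference was 0.44 ± 0.09 (edgeR adjusted p = 0.0287), and leaving out any of the 6 libraries ended the call (adjusted p up to 0.178). Nedd9, a gene of a focal adhesion scaffold, followed it (intron 2 of 7, chr13:41327393-41358448). It had 116.2, 111.7 and 108.2 CPM in basal and 96.6, 94.9 and 124.7 in the CD229-CD11c- subset. It had 71.6, 69.9 and 81.6 CPM in CD229+CD11c- and 92.2, 97.4 and 111.5 in the CD229+CD11c+ subset. Again CD229+CD11c- was lowest and overlapped no other group. The direct difference was 0.43 ± 0.10 (adjusted p = 0.0414) and also missed the threshold without any one of the 6 libraries (up to 0.221).

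Against CD229-CD11c- microglia, the members that rose in the CD229+CD11c+ subset by the rule were at Scarf2 (0.59), Slc26a11 (0.54), Fgd1 (0.47), 4933405E24Rik (0.46), Lef1 (0.39), Rcan2 (0.39), B930025P03Rik in Myo16 (0.37) and Atp1b1 (0.34). Fgd1 encodes an exchange factor of Cdc42 and Atp1b1 a subunit of the sodium pump. Those that fell were at Efr3b, Egln3 and, in an intron of the kinase gene Fyn, Traf3ip2 (-0.35). Of these 11, the call at Efr3b held under the 11 alternatives run for single members, and each of the others ended without at least 2 of the 6 libraries, CD229+CD11c+ replicate 1, 2 or 3 among them. Those at Slc26a11, 4933405E24Rik, Rcan2, B930025P03Rik and Atp1b1 also ended with loess offsets, and the first 4 of them with total-count scaling. The highest edgeR adjusted p-values in those runs lay between 0.062 at Lef1 and 0.321 at Traf3ip2.

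Some host genes held several called members. In CD229+CD11c- against basal microglia 379 host genes held a called member and 39 held 2 or more. In 14 of these all calls were higher, in 22 all were lower, and in 3 both occurred. In Cacna1a, which encodes a P/Q-type calcium channel subunit, 5 of 8 members fell, by 0.41 to 0.55 on the log2 scale. In Celf4, a neuronal RNA-binding protein gene, 4 of 7 fell, and in Ano1, a calcium-activated chloride channel gene, 3 of 4 rose, by 0.37 to 0.69. Setbp1 held both, with 1 of 5 members higher and 3 lower. In CD229+CD11c+ against basal microglia 147 host genes held a call and 10 held 2 or more, 5 with all higher and 5 with all lower. All 3 members in Arhgap10, a GTPase-activating protein gene, fell, by 0.29 to 0.48, as did 3 of 4 in Nek10, a kinase gene, by 0.33 to 0.52. Neighbouring members can be parts of 1 domain and are not independent.

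The genes with the most members by nearest start showed few calls. Pard3, a cell polarity gene, had 17 over 506.7 kb, none of which was called in any comparison. In CD229+CD11c- against basal microglia 3 of them were above 0 and 14 below, with a median of -0.11 and a range from -0.48 to 0.15. The median over all members there was -0.05. Rora had 15, of which 1 fell. Dlgap2, a postsynaptic scaffold gene, had 14 and Thsd4, a matrix protein gene, 13, none called against basal microglia. Ebf1, a B-cell transcription factor gene, had 12, of which 1 rose (0.43, edgeR adjusted p = 0.0259, a call that most runs without a library ended). All 14 members at Dlgap2 were above 0 in CD229+CD11c+ against CD229+CD11c- microglia, between 0.03 and 0.27, with none called. The median over all members in that comparison was also above 0, at 0.04, and neighbouring members are not independent.

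Gene lists were matched to the gene of the nearest start. Their counts are read against 9.52% higher and 3.47% lower over all regions in CD229+CD11c-, and 4.33 and 1.47% in the CD229+CD11c+ subset, and their medians against -0.03 and -0.01. Matching by host gene changed counts in CD229+CD11c- against basal microglia. Then 8 of 156 axon guidance members rose and 4 fell, and 4 of 188 second messenger members rose and 9 fell. Of 114 matrix members 9 rose and 4 fell, of 27 cytokine members 2 and 3, and of 9 disease-associated members 1 and 1. The counts below are by nearest start. Of 88 members at 30 developmental transcription factor genes, 6 rose and 3 fell in CD229+CD11c- (median -0.04), and in the CD229+CD11c+ subset 4 rose and 0 fell (median 0.07). Those that rose included Lef1, Tfap2e, an AP-2 family gene (0.58, edgeR adjusted p = 8.1e-06), and a member at Sox2 in an intron of Sox2ot (0.50, adjusted p = 7.87e-05). The Sox2 call in CD229+CD11c- ended with loess offsets (adjusted p = 0.0524). In CD229+CD11c+ microglia Tfap2e (0.27) and Sox2 (0.30) passed too, but missed the threshold under 7 and 6 of 11 alternatives, total-count scaling included.

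Of 74 members at axon guidance and adhesion genes, 4 rose and 4 fell in CD229+CD11c- (median -0.02) and 2 and 1 in the CD229+CD11c+ subset (median 0.10). Efna5, an ephrin gene, rose by 0.52 (edgeR adjusted p = 0.00147) and Sema6a, a semaphorin gene, fell by 0.47 in CD229+CD11c- microglia. Of 172 members at ion channel and transmitter receptor genes, 7 rose and 5 fell (median 0.01), and 4 and 1 (median 0.08). Kcnc1, a potassium channel gene, rose by 0.69 (adjusted p = 0.000403) and 0.57 (adjusted p = 0.00754), the latter lost without CD229+CD11c+ replicate 1 or basal replicate 4 (up to 0.0582). Grin1, an NMDA receptor subunit gene, rose by 0.39, with no call under loess offsets (adjusted p = 0.22). Of 84 members at synapse genes 4 rose and 3 fell (median -0.05), and 0 and 2 (median 0.07). Syn1, the gene of the vesicle protein synapsin, rose by 0.51 and Elavl3, a neuronal RNA-binding protein gene, by 0.34 in CD229+CD11c-, neither called under loess offsets (adjusted p = 0.0981 and 0.251).

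Of 61 members at growth factor and morphogen genes 5 rose and 3 fell in CD229+CD11c- (median -0.05) and 2 and 2 in the CD229+CD11c+ subset (median within 0.01 of 0). One in an intron of the imprinted noncoding gene Airn, nearest to Igf2r, rose by 0.66 (edgeR adjusted p = 0.000219). Fgf9, a fibroblast growth factor gene, rose by 0.40, without a call under loess offsets (adjusted p = 0.15). Of 78 members at extracellular matrix genes 8 rose and 1 fell (median 0.04), and 1 and 1 (median 0.06). They included Tnxb, a tenascin gene (0.48), and the collagen genes Col8a2 (0.46) and Col23a1 (0.48), all called in CD229+CD11c- against basal microglia under each of the 11 alternatives run. Of 121 members at second messenger genes 1 rose and 4 fell (median -0.10), and 0 and 3 (median -0.05), with Arhgap10 at -0.51 (adjusted p = 0.000783) and -0.48 (adjusted p = 0.00467) and Camkmt, a calmodulin methyltransferase gene, at -0.38 and -0.42. With library totals, each of the 7 medians of these functional lists in CD229+CD11c- microglia lay below 0, from -0.24 to -0.09.

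Few members lay at microglial state genes. Of 7 at 4 genes of disease-associated microglia, 1 fell in each CD229+ group: Myo1e, a class I myosin gene. Its member had 31.5, 24.7 and 21.5 CPM in basal, 19.4, 17.2 and 26.9 in CD229-CD11c-, 12.2, 13.8 and 14.7 in CD229+CD11c- and 9.32, 12.6 and 17.3 CPM in the CD229+CD11c+ subset. The log2 change was -0.93 ± 0.20 (edgeR adjusted p = 0.00301) and -0.97 ± 0.20 (adjusted p = 0.00682), and the latter missed the threshold without CD229+CD11c+ replicate 1 (adjusted p = 0.0537). The list's medians were -0.34 and -0.32. For homeostatic genes, the start of Maf, a macrophage transcription factor gene, was the nearest to all 4 members, and none had a listed gene as host. The medians of these members were also below 0, at -0.33 and -0.19. Against that direction, 1 member rose in CD229+CD11c- microglia. It lies in Wwox, 544 kb from the Maf start, and changed by 0.62 (adjusted p = 0.0281), a call lost with total-count scaling or without CD229+CD11c- replicate 1 or 3 or basal replicate 4 or 5 (up to 0.18).

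Of 30 members at cytokine and immune receptor genes, 3 rose and 2 fell in CD229+CD11c- (median 0.04), and none was called in the CD229+CD11c+ subset (median 0.02). Il5ra, the interleukin 5 receptor alpha gene, had 15.0, 13.7 and 16.2 CPM in basal, 14.4, 15.5 and 12.3 in CD229-CD11c-, 8.68, 8.18 and 7.86 in CD229+CD11c- and 12.5, 13.1 and 13.3 CPM in the CD229+CD11c+ subset. Only CD229+CD11c- was low, and it overlapped no other group. It fell by 0.86 ± 0.15 (edgeR adjusted p = 0.000249) there, and was at -0.21 (adjusted p = 0.405) in the CD229+CD11c+ subset. Tnfrsf18 and Il27ra, an interleukin 27 receptor gene, were among those that rose, by 0.67 and 0.36, the latter without a call under loess offsets (adjusted p = 0.196). Of 30 members at lipid handling genes none rose and 2 fell (median -0.14), at Fabp12, a fatty acid binding protein gene (-0.81), and Abca6, a lipid transporter gene (-0.48), and 0 and 1 in CD229+CD11c+ (median -0.06), again Fabp12 (-0.80, adjusted p = 0.00999). The last missed the threshold without CD229+CD11c+ replicate 1 or basal replicate 4 (up to 0.0715).

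Of 6 members at Polycomb and H3K27 demethylase genes, 2 rose in CD229+CD11c- and none was called in the CD229+CD11c+ subset (medians 0.21 and 0.11). The larger change was nearest to Kdm6b, the gene of an H3K27 demethylase, in an intron of Dnah2. It had 11.9, 8.10 and 11.0 CPM in basal, 11.4, 9.46 and 12.4 in CD229-CD11c-, 17.7, 20.5 and 21.8 in CD229+CD11c- and 10.8, 13.5 and 17.7 CPM in the CD229+CD11c+ subset. CD229+CD11c- was above the basal and CD229-CD11c- libraries, and CD229+CD11c+ overlapped both of these. It rose by 0.95 ± 0.18 (edgeR adjusted p = 0.000691) in CD229+CD11c- and was at 0.45 (adjusted p = 0.154) in the CD229+CD11c+ subset. The other, Scml4, a Polycomb-related gene, was at 0.42 (adjusted p = 0.0452), a call lost with total-count scaling and in 5 of 6 runs without a library, all but that without CD229+CD11c- replicate 2 (up to 0.22).

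Members at marker genes of other brain and blood cells were few. Since H3K27me3 is read here and not expression, their levels do not measure how many such cells a sort held. At lymphocyte markers 24 members lay at 7 genes, of which 3 rose in CD229+CD11c- and 2 in the CD229+CD11c+ subset. The list has 28 genes. The summed level was 795.7 to 823.2 CPM in basal, 791.5 to 891.3 in CD229-CD11c-, 898.2 to 969.9 in CD229+CD11c- and 928.3 to 961.5 in the CD229+CD11c+ subset, so that the CD229+ libraries lay above the others. The Lef1 member described above made up most of the rise of that sum in CD229+CD11c- microglia. The list's median log2 change was -0.05 in CD229+CD11c- and 0.07 in the CD229+CD11c+ subset. Of 12 members at Ebf1, 1 was above 0 and 11 below in CD229+CD11c-, and 10 and 2 in the CD229+CD11c+ subset. Over all members the medians were -0.05 and within 0.01 of 0. The members that rose were at Lef1, Bcl11b, a T-cell transcription factor gene (0.46 and 0.54), and Ebf1. The Ebf1 member was called in CD229+CD11c- (0.43) and was at 0.34 in the CD229+CD11c+ subset, with a direct difference of -0.095 (edgeR adjusted p = 0.818). The Ebf1 call ended with total-count scaling and in 5 of 6 runs without a library, all but that without CD229+CD11c- replicate 3 (adjusted p up to 0.146). The Bcl11b calls ended with loess offsets or without CD229+CD11c- replicate 1 or 2 or basal replicate 4 (adjusted p up to 0.077), and without CD229+CD11c+ replicate 1 or basal replicate 4 (up to 0.0642). At neuron markers 26 members (7 of 29 genes) summed to 1176 to 1272 CPM in basal, 1129 to 1354 in CD229-CD11c-, 1176 to 1357 in CD229+CD11c- and 1204 to 1322 in the CD229+CD11c+ subset, with 1 higher and 4 lower in CD229+CD11c- and 1 lower in the CD229+CD11c+ subset. The neuron list's medians were above 0, at 0.16 and 0.21.

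At oligodendrocyte markers 10 members (8 of 22 genes) summed to 567.9 to 590.5, 567.4 to 597.0, 566.9 to 581.1 and 536.1 to 576.1 CPM in the same order of groups, which overlapped. None was higher. In CD229+CD11c- microglia 2 were lower, at Mbp, the myelin basic protein gene (-0.88, edgeR adjusted p = 0.023), and Cspg4, a gene of oligodendrocyte precursors (-0.31, adjusted p = 0.0482). In CD229+CD11c+ microglia 1 was, nearest to Opalin (-0.32, adjusted p = 0.014). The Mbp call ended with loess offsets or without CD229+CD11c- replicate 1 or 3 or basal replicate 3 or 4 (adjusted p up to 0.114). The Cspg4 call ended in 5 of 6 such runs, all but that without CD229+CD11c- replicate 2 (up to 0.191), and with DESeq2. The Opalin call ended without CD229+CD11c+ replicate 1 or 2 or basal replicate 3 (up to 0.0966). At astrocyte markers 16 members (7 of 20 genes) summed to 503.3 to 514.1, 496.9 to 505.4, 468.7 to 491.6 and 482.6 to 502.3 CPM. Here CD229+CD11c- lay below all basal and CD229-CD11c- libraries, and CD229+CD11c+ lay below all basal ones. At endothelial and mural markers 10 members (4 of 22 genes) summed to 168.2 to 180.6, 166.7 to 197.7, 170.4 to 189.6 and 180.8 to 209.5 CPM, with CD229+CD11c+ above all basal libraries. Each of these 2 lists had 1 member lower in CD229+CD11c- and none called in the CD229+CD11c+ subset. They were at Nfia (-0.22, edgeR adjusted p = 0.0354) and Abcc9 (-0.57, adjusted p = 0.0313). The Nfia call ended in 5 of 6 runs without a library, all but that without basal replicate 3 (up to 0.135). The Abcc9 call ended with loess offsets or without CD229+CD11c- replicate 1 or 2 or basal replicate 3 or 5 (up to 0.118). At markers of peripheral macrophages, neutrophils and dendritic cells 2 members (2 of 29 genes) summed to 22.08 to 31.07, 24.26 to 31.16, 26.99 to 29.71 and 29.45 to 32.82 CPM, with no call. Matched by host gene, this list also had 2 members. Of those, 1 was called higher in each CD229+ subset against basal microglia, and 1 in CD229+CD11c- against CD229-CD11c- microglia. No listed member was at 0 in any library. Whether other cells had a part in the results was not tested.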

How the data were processed

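H3K27me3 tags were counted by the authors in regions that, per the file headers, HOMER called in mm10 with DESeq2 from basal replicates 1 and 2 against 2 inputs, with a size of 1250 bp, F 2 and L 0, at a log2 fold of 1 and an adjusted p of 0.05. Those 2 libraries have no columns of counts. The deposited tables also hold the log2 fold over input and the region size in bp, which served to describe members. The log2 fold changes and adjusted p-values of the authors' deposited table gave only the counts credited to it. Tools named in the submitters' processing notes are fastp 0.20.0, Bowtie2 2.3.4.1 and STAR 2.7.0f, and builds GRCm38 and mm10. The tags of the inputs and reads outside the regions were not analysed here.

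The deposited raw counts of 12 libraries were fitted with edgeR 4.0.16 in R 4.3.3: TMM scaling over all 26326 regions, robust quasi-likelihood F-tests, 4 groups in 1 model and Benjamini-Hochberg adjustment over all regions. The SE is the log2 change over the square root of F, and CPM in log2 form used a prior count of 2. The test was checked on simulated counts with 200 changed regions. Shares of tags were tested by exact permutation (scipy 1.17.1). Depth was 7740002 to 11362168 tags per library, so that a member with few tags needs a larger change to be called. Alternatives were DESeq2 1.42.0, total-count scaling, loess offsets on the level (limma 3.58.1, span 0.3), the PE150 tag as a covariate, a mean of at least 100 tags, the compared groups alone, a replicate block, and each library left out. Single members were not run with the 100-tag minimum, the compared groups alone or the block, which leaves 11 alternatives. Deviations from group means of same-numbered libraries correlated at 0.128 to 0.457 in the 6 pairs of CD229-CD11c- with CD229+ libraries, so the blocked counts stand beside those comparisons, and at 0.083 to 0.332 in the 3 pairs between CD229+ subsets. The labels do not say that a number marks a shared sort, and replicate 3 is the untagged library of each cuprizone group. The fit of PE150-tagged libraries alone was added after seeing the data.

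Members were named by the gene of the nearest start and the intron's host gene. The rule took up to 10 members each way for both CD229+ subsets against basal microglia and for CD229+CD11c+ against the CD229-CD11c- subset, and 4 each way otherwise. It took the 3 smallest p-values where none was called, the 5 highest by basal density and by log2 fold over input, the 5 genes with most members, and the 3 smallest p-values of each list's called members. The members at Myof, 4930430F21Rik and (against basal) 5730435O14Rik were added with their values known. The members, the 12 gene lists and the 6 marker lists were chosen with earlier results of these data known. Promoters come from RefSeq (GRCm38.p6). No genome was used, so the members' own sequences are not shown.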

Additional observations from a re-analysis of the deposited data

Results flagged for a closer look

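The effects of the CD229+CD11c+ and CD229+CD11c- subsets against basal microglia differed, by the direct comparison of the subsets with edgeR's quasi-likelihood test (3 libraries each, adjusted over all regions), at 10 of the members named. Members were named in part for calls in this and related comparisons. Of all 4294 members, 4 were higher and 19 lower in it (0.0932 and 0.443%), against 0.0532 and 0.771% of all regions. The change was higher in CD229+CD11c+ microglia at Neurl1b (0.44, adjusted p = 0.0287), Nedd9 (0.43, adjusted p = 0.0414) and Il5ra (0.65, adjusted p = 0.0402). It was lower at Fam221b (-0.50, adjusted p = 0.0478), Scarf2 (-0.49, adjusted p = 0.0413), Ak8 (-0.47, adjusted p = 0.00198) and Foxred2 (-0.46, adjusted p = 0.0234). It was also lower at a member in Sptbn4 nearest to Shkbp1 (-0.32, adjusted p = 0.0434), Tfap2e (-0.31, adjusted p = 0.0438) and Elavl3 (-0.27, adjusted p = 0.0491). At Neurl1b, Nedd9, Fam221b, Scarf2, Ak8 and Foxred2 the naming rule itself required that the libraries of these subsets not overlap. They did not overlap at Il5ra, Shkbp1, Tfap2e and Elavl3 either.

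Of all the members flagged, Ak8 alone kept its call in all 11 alternatives. At Neurl1b the call ended without any one of the 6 libraries, and at Nedd9, Scarf2, Shkbp1, Tfap2e, Elavl3 and Il5ra it did so and also ended with loess offsets and with total-count scaling. At Foxred2 it ended without CD229+CD11c+ replicate 1 or 2 or CD229+CD11c- replicate 1 or 3, and at Fam221b without any of the 6 but CD229+CD11c+ replicate 3, and at both with those scalings.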

How the results depend on the processing

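Of the 1790 runs of the named members under alternatives, 1473 kept the direction and the side of the threshold, 312 kept the direction but missed the threshold, 5 newly passed it, and none changed direction. The misses were 242 of 978 runs that left out a library, 40 of 163 with loess offsets, 26 of 163 with total-count scaling, 2 of 163 in the tagged libraries alone and 2 of 160 with DESeq2.

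The number of members called moved by over 1.5 times as follows. With the PE150 tag as a covariate it was, against basal microglia, 4 for CD229-CD11c-, 803 for CD229+CD11c- and 626 for CD229+CD11c+. It was 547 in CD229+CD11c- and 163 in CD229+CD11c+ against CD229-CD11c- microglia, and 206 between the CD229+ subsets. In the tagged libraries alone these were 117, 744, 594, 389, 97 and 147. With only the compared groups in the fit it was 377 in CD229+CD11c+ against basal, 143 and 2 against CD229-CD11c- microglia and 53 between the CD229+ subsets. DESeq2 gave 32 in CD229+CD11c+ against CD229-CD11c- microglia and 61 between the CD229+ subsets. Total-count scaling gave 839 in CD229+CD11c- against basal, 420 against CD229-CD11c- microglia and 2 between the CD229+ subsets, and loess offsets 2 for the last. Leaving out 1 library, whether or not past that margin, gave 0 to 3, 238 to 416, 42 to 180, 170 to 288, 3 to 24 and 1 to 11 in the order of the tag covariate; the fourth range stayed within 1.5 times of 250.

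The share of tags in members between CD229-CD11c- and basal microglia turned from -0.0876 to 0.0261 points without CD229-CD11c- replicate 3, with a range from -0.214 over such runs. The ranges of the other 5 differences were -0.945 to -0.736, -0.521 to -0.331, -0.844 to -0.642, -0.421 to -0.218 and 0.342 to 0.489. Why counts moved was not tested, except that the smaller sets hold fewer libraries.

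With the replicate number as a block in the 9 cuprizone libraries, 578 and 203 members were called against CD229-CD11c- microglia and 245 between the CD229+ subsets. Deviations of differently numbered libraries correlated at -0.373 to 0.248, and of the 9 libraries 6 correlated best with their own number in both other groups, a hint from the data and not from the design. Number 3 is also the library without the PE150 tag in each cuprizone group, so that this number and the tag cannot be told apart. Its pairs correlated at 0.332 to 0.457. Among tagged libraries, same-numbered pairs correlated at 0.083 to 0.283 and differently numbered pairs at 0.093 to 0.248. The basal libraries share only the number 3 with the others and stayed out of that fit. In simulated counts for CD229+CD11c- against basal microglia over 26326 regions, 90 of 100 changes of 2-fold and 58 of 100 of 1.5-fold were called, so that smaller changes can be missed at this depth.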
